A study of Mus musculus with 5 samples.

Results

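The 10 genes described here encode the secreted antimicrobial proteins of the Paneth cell: lysozyme (Lyz1), 5 alpha-defensins (Defa17, Defa21, Defa22, Defa24 and Defa26), the ribonuclease Ang4, the lectin Itln1, the pentraxin Mptx2 and the protease Mmp7. They were taken by symbol from the deposited gene table, which lists 27998 genes, and all 10 were found. The samples were 5 droplet libraries of ileal epithelial cells from C57BL/6 mice aged 8 to 12 weeks, 3 after sham surgery (sham 1 to 3) and 2 after small bowel resection (resection 1 and 2), surgery in which a stretch of the small intestine is cut out. The extent of the resection, the time after surgery and the number of mice behind each library are not given in the sources used here, so p-values measure the spread between libraries. The comparison asked whether the Paneth cell's antimicrobial output in the ileum differs after resection.

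Paneth cells sit at the base of the small intestinal crypts and release granules into the crypt lumen. Alpha-defensins are small cationic peptides with 3 disulfide bonds that damage bacterial membranes. In the mouse they are made as inactive precursors, and matrilysin, the product of Mmp7, cuts them into the active form. Lysozyme cleaves the peptidoglycan of bacterial cell walls, and intelectin binds sugars on microbial surfaces. Paneth cells need Wnt signalling, which acts through TCF/LEF factors, to mature.

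The 5 defensin genes lie on the forward strand of chromosome 8 (GRCm38), each with 2 exons and a coding sequence of 282 bases: Defa21 at chr8:21025545-21026516, Defa22 at chr8:21162277-21163249, Defa26 at chr8:21618183-21618972, Defa17 at chr8:21655780-21656735 and Defa24 at chr8:21734494-21735471. They stand in a run of 28 alpha-defensin genes, from Defa21 to Defa24, of which 23 are not among the 10 described. The other genes are spread over the genome: Lyz1 (chr10:117287797-117292868, reverse strand, 4 exons), Ang4 (chr14:51763878-51773590, reverse strand, 2 exons), Itln1 (chr1:171518122-171535294, reverse strand, 8 exons), Mptx2 (chr1:173274382-173277777, reverse strand, 2 exons) and Mmp7 (chr9:7692090-7699585, forward strand, 6 exons).

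How nearly alike the defensins are limits how their counts can be read, so their coding sequences are shown, from the GENCODE M21 transcripts. In Defa17 and Defa26, capitals mark the bases that differ from Defa24.
Defa24: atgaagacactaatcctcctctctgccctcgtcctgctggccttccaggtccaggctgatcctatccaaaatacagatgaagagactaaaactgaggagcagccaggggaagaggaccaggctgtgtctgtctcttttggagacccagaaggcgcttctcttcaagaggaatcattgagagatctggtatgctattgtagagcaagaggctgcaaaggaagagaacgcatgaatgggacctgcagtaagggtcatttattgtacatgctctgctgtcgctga
Defa17: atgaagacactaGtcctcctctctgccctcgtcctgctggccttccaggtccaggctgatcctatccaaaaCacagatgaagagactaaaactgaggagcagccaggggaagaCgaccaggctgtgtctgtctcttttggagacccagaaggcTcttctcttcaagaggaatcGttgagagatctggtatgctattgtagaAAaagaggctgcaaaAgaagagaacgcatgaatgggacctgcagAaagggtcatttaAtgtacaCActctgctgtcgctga
Defa26: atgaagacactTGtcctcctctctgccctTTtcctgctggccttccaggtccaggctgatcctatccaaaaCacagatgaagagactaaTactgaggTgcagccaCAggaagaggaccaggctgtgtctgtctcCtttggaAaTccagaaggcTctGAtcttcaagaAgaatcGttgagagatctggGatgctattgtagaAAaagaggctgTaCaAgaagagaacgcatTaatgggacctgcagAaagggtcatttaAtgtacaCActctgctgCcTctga
Defa17 was 95.7% identical to Defa24, with 12 differing bases, and Defa26 was 89.4% identical to it, with 30. Defa21 and Defa22 form a separate pair, 80.8% and 81.5% identical to Defa24 over the columns of the alignment, gaps included. In the next lines capitals mark the bases at which this pair differs.
Defa21: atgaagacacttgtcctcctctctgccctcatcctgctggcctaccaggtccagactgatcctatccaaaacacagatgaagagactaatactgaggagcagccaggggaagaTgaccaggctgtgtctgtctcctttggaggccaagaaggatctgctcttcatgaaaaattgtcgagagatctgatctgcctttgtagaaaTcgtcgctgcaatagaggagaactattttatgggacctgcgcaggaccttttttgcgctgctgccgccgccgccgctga
Defa22: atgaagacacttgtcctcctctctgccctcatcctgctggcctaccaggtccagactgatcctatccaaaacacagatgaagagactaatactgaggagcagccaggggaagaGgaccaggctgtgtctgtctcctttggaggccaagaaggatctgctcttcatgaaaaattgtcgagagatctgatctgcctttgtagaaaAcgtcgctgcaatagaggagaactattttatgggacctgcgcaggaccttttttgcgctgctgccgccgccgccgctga
Only 2 of 282 bases separated Defa21 from Defa22 (99.3% identity).

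The same transcripts show which members a 3' read can tell apart. In the last 500 bases of the transcript, or all of it where it is shorter, 54.7% of the 90-base windows of Defa21 and 54.8% of those of Defa22 occurred in no other gene, and the windows they shared were shared with each other. For Defa17 only 9.09% of windows were its own. Defa26 (95.4%) and Lyz1 (96.4%, shared with the macrophage-type lysozyme Lyz2) were nearly free of shared windows. Every window of Defa24, Ang4, Itln1, Mptx2 and Mmp7 was unique. Counts of Defa17, Defa21 and Defa22 are therefore uncertain as single genes, since how reads that fit several genes were treated is not given in the sources used here.

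Defa21 and Defa22 also share their upstream sequence. RefSeq promoter windows (GRCm38.p6) were matched for 7 of the 10 genes, and the windows of Defa21 and Defa22 were identical at 300 of 300 bases. The counts of Defa21 and Defa22 also varied together from cell to cell, and a link to this sequence was not tested. The 250 bases before the start are shown. They lie at chr8:21025295-21025544 for Defa21 and chr8:21162027-21162276 for Defa22, both on the forward strand. Capitals mark the TCF/LEF core CTTTGAT, here on the other strand as ATCAAAG, and the TATA box TATAAA.
Defa21 and Defa22 upstream: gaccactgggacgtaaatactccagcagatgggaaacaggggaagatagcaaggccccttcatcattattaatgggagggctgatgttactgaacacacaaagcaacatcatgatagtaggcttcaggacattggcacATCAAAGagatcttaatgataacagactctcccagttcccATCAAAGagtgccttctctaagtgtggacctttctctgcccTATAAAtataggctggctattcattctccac
The core stood at -112 and -72 and the TATA box at -31 from the start. Searched on both strands, CTTTGAT occurred in 3.73% and TATAAA in 13.6% of 32851 promoter windows of that length. Among the other matched members, a window of Mmp7 held both motifs, and those of Lyz1, Ang4, Itln1 and Mptx2 held neither. A match of letters is a description and not a site of binding.

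After filtering, 18235 of 19404 cells were kept, and 1021 of them were Paneth-like. The sham libraries 1 to 3 held 217, 240 and 118 of these and the resection libraries 178 and 268. The class was named without the 10 genes, from 18 other Paneth markers, which summed to between 306838 and 393929 CPM, that is, unique molecular identifiers (UMIs) scaled to a class total of 1e+06. Paneth-like cells fell into 2 clusters that split the libraries across the surgery groups. Cluster 16 held 399 cells, 389 of them from sham 1 and resection 1 (set A), and cluster 12 held 622 cells, 616 of them from sham 2, sham 3 and resection 2 (set B). The sets are known from earlier results of these data and are no labelled batch. Ribosomal pseudogenes took 1.72 to 2.31% of ribosomal UMIs in set A and 0.634 to 0.729% in set B. Pairs of libraries shared between 6 and 47 cell barcodes. Both sets hold both groups, so values are given library by library, always in the order sham 1, sham 2, sham 3, resection 1, resection 2 where 5 values stand together.

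Paneth-like cells devoted about the same large share of their RNA to these 10 genes in each library. The members made up 40.0%, 42.4%, 42.1%, 43.4% and 37.9% of all UMIs of Paneth-like cells. Together with the rest of the defensin run the share was 83.5%, 79.0%, 81.2%, 85.5% and 69.8%. Resection 2 was the lowest library in both. Of all member UMIs counted, 93.1% lay in Paneth-like cells. The median Paneth-like cell held 16960, 10298, 8386, 19714 and 5891 UMIs. In every library at least 99.6% of Paneth-like cells had 10% or more of their UMIs from the members.

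Levels between genes are compared in CPM, because a 3' UMI counts a molecule once whatever its length. Defa24 was the most abundant member, with 180866, 211527 and 208427 CPM in the sham libraries, then 212710 and 194522 CPM. It lay within 1.18-fold across the 5 libraries and the groups overlapped. Defa22 followed with 77826, 75614, 76140, 79796 and 69246 CPM. Defa21, its near copy, reached 69833, 75276, 70732, 72351 and 65308 CPM, with resection 2 lowest. The ranges of Defa22 and Defa21 overlapped.

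Below the abundant defensins, Lyz1 stood at 24458, 23087, 27229, 23334 and 19795 CPM, with resection 2 lowest. Itln1 stood at 18006, 16065, 14317, 16712 and 11241 CPM, again lowest in resection 2. Defa17 had 17392, 10552, 12702, 15003 and 8451 CPM. Defa17 was the defensin member with the widest range, 2.06-fold, and its highest libraries were sham 1 and resection 1.

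The remaining 4 members were less abundant. Ang4, a ribonuclease of the angiogenin family with activity against microbes, had 3943, 3733, 4823, 5310 and 4680 CPM, and the groups overlapped. Mptx2, a mucosal pentraxin, had 3745, 3642, 2655, 4790 and 2409 CPM. Its highest and lowest libraries were therefore the 2 resection libraries. Defa26 had 2633, 2712, 2481, 2780 and 2252 CPM. Mmp7, the least abundant, had 1507, 1435, 1257, 1539 and 1228 CPM.

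**Figure D1:**
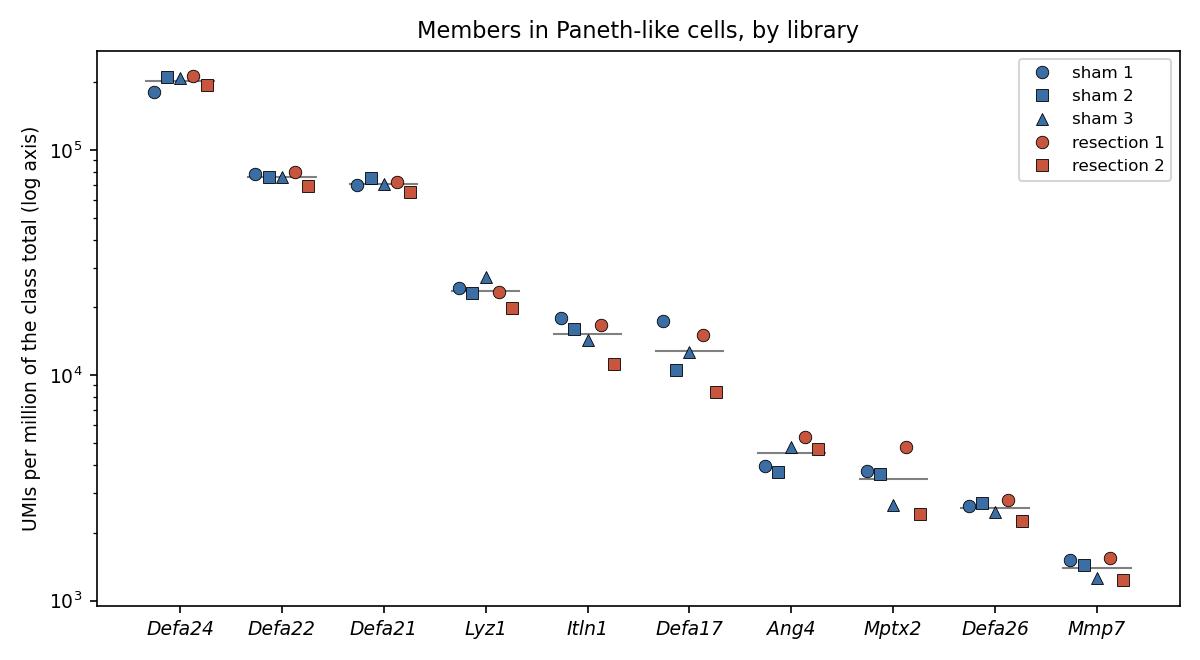
Level of each member in Paneth-like cells in CPM of the class total (log axis), with 1 point per library (blue sham, red resection; circles are set A, other shapes set B) and a grey line at the mean of the 5 libraries. Defa24 lies between 180866 and 212710 CPM and Mmp7 between 1228 and 1539 CPM, and sham and resection points overlap for each gene.

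The order of levels was the same in each library: Defa24, Defa22, Defa21, Lyz1, Itln1, Defa17, Ang4, Mptx2, Defa26, Mmp7. All 9 neighbouring pairs kept this order in 5 of 5 libraries. The ranges over libraries nevertheless overlapped for 4 pairs, Defa22 with Defa21, Itln1 with Defa17, Ang4 with Mptx2 and Mptx2 with Defa26. Between libraries the coefficient of variation was lowest for Defa21 (5.17%) and Defa22 (5.25%) and highest for Mptx2 (27.6%) and Defa17 (27.6%). Of the member UMIs, Defa24 took 45.2 to 51.3% and Mmp7 0.299 to 0.377%.

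The members were also compared between the library sets. In 5 of 10 members, Defa17, Defa22, Itln1, Mptx2 and Mmp7, both libraries of set A lay above all 3 of set B, and in none below. Of all genes tested, 5.44% lay above in this way and 25.9% below. The ratio of set means was 1.53 for Defa17, 1.47 for Mptx2, 1.25 for Itln1, 1.17 for Mmp7 and 1.07 for Defa22. Defa24 had a ratio of 0.961 and its sets overlapped. The sets also differed in depth per Paneth-like cell (medians of 16960 and 19714 UMIs in set A, 5891 to 10298 in set B), and the part of depth in these differences was not tested.

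Within the Paneth-like class, nearly every cell held UMIs of nearly every member once cells were thinned to 2000 UMIs each, which left out no cell. Thinned shares of cells with a UMI were at least 97.4% for 8 of the members in each library. Mptx2 was found in 90.8%, 87.9%, 80.5%, 90.4% and 78.0% of cells. Mmp7 was found in 94.5%, 92.5%, 94.1%, 95.5% and 89.6%. In enterocyte-like cells, which should lack these genes, the thinned shares were 1.46 to 7.29% for Mptx2 and 0.548 to 4.60% for Mmp7, so both lay far above that background.

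From cell to cell, Defa21 and Defa22 varied together. Their correlation across Paneth-like cells had a median of 0.75 over the 5 libraries (range 0.66 to 0.90), the highest of all pairs of members. Defa17 with Defa24 came next (median 0.43, range 0.23 to 0.73). These are Pearson correlations of log2 counts scaled to 10000 UMIs per cell, given as a description. Defa21 and Defa22 share windows with each other. Defa17 shares windows with other defensin genes but not with Defa24. Among members with no shared windows, Itln1 with Mmp7 had a median of 0.35 (range 0.29 to 0.37) and Itln1 with Defa24 one of 0.34 (range 0.03 to 0.61).

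Outside the 10 genes, those whose pattern over 35 combinations of class and library was most like the members' mean were Defa20 (Pearson r 0.997), Gm15308 (0.996), Gm7861 (0.996), Gm15284 (0.996) and Gm15292 (0.995), all in the same defensin run. Outside that run the nearest were the pancreatic-type lipase Pnliprp2 (0.980), its cofactor colipase Clps (0.979), Nupr1 (0.963), Reg4 (0.949) and Habp2 (0.930). All of these genes except Reg4 were among the 18 markers that named the Paneth-like class, so their high r was in part built in. The combinations also share libraries, and with them a level of free RNA.

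Outside Paneth-like cells the members were found at a low level in each other class. Free RNA from broken cells enters droplets that hold other cells, and levels in enterocyte-like cells are read here as that background. The members took 0.528%, 0.854%, 0.153%, 0.289% and 0.301% of the UMIs of enterocyte-like cells. Immature enterocyte-like cells (0.160 to 0.585%), stem-like cells (0.156 to 0.870%) and cycling-like cells (0.232 to 0.589%) had shares in the same range, and sham 3 was the lowest library in each. Defa24 was so abundant that, after thinning to 2000 UMIs, 81.5 to 100% of enterocyte-like cells held a UMI of it.

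**Figure D2:**
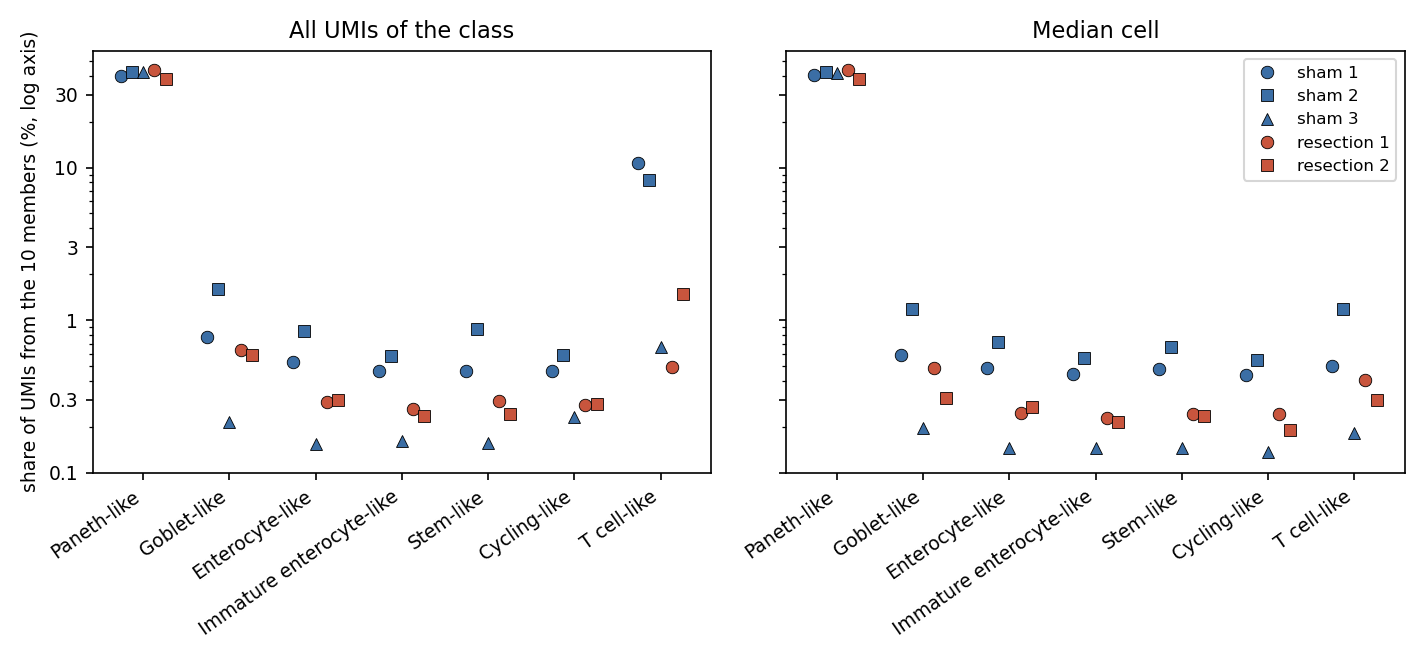
Share of UMIs that came from the 10 members, by class and library (log axis), over all UMIs of the class on the left and in the median cell on the right. Paneth-like cells lie between 37.9% and 43.4% on the left, and the other epithelial classes between 0.153% and 1.60%.

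Relative to the Paneth-like level of the same library, the members stood in enterocyte-like cells at a nearly even fraction. The median over members was 1.33%, 1.76% and 0.325% of the Paneth-like level in the sham libraries, then 0.574% and 0.703%. Within a library the members lay within 0.961 to 1.85% (sham 1), 1.12 to 2.26% (sham 2), 0.302 to 0.468% (sham 3), 0.434 to 0.814% (resection 1) and 0.622 to 1.08% (resection 2). The mixture was close to, but not the same as, that of Paneth-like cells. Defa24 took a larger part of member UMIs in enterocyte-like than in Paneth-like cells in 5 of 5 libraries (1.11 to 1.16 times), and Defa21 (0.743 to 0.928 times), Defa22 (0.778 to 0.937 times), Ang4 and Mptx2 a smaller part in 5 of 5.

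**Figure D3:**
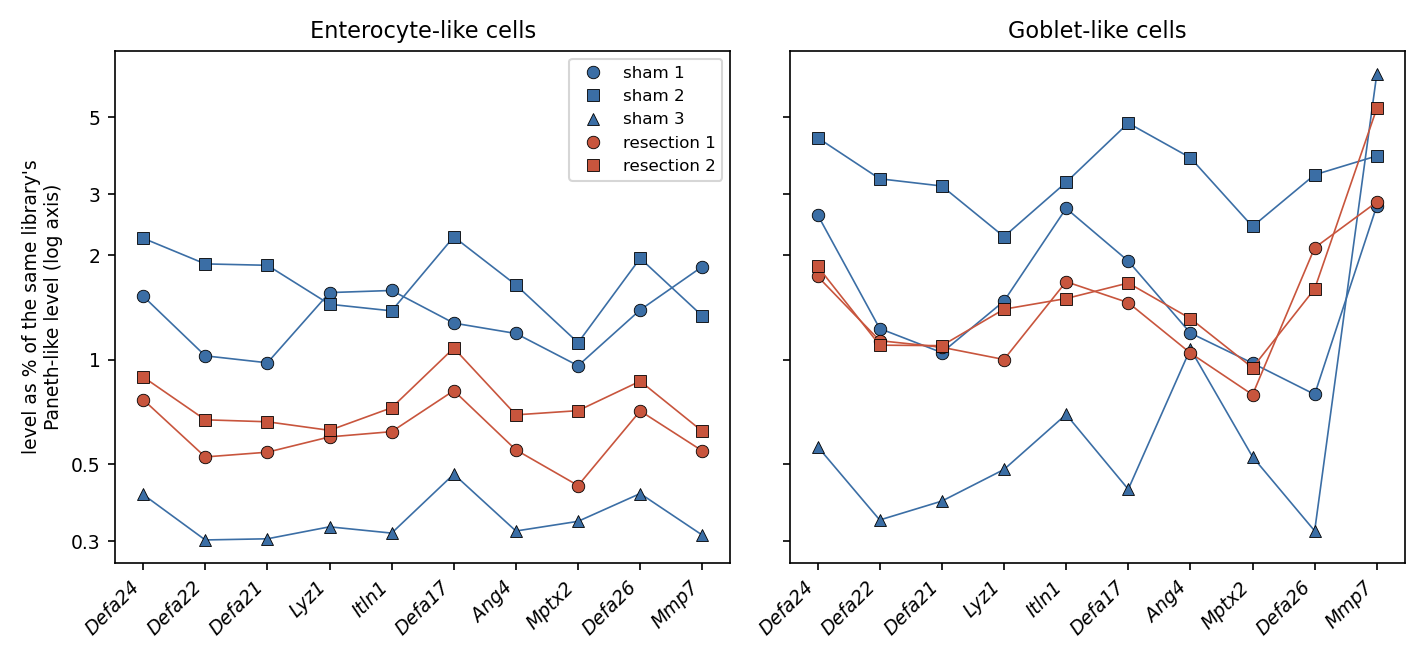
Level of each member in enterocyte-like (left) and goblet-like (right) cells as a percentage of its level in Paneth-like cells of the same library (log axis), with 1 line per library. Lines are nearly flat on the left, while Mmp7 stands at 2.77 to 6.65% on the right.

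Goblet-like cells, the mucus-producing relatives of Paneth cells, had more member RNA than enterocyte-like cells in each library: 0.775%, 1.60%, 0.215%, 0.632% and 0.586% of UMIs. The median enterocyte-like cell held 0.481%, 0.715%, 0.144%, 0.248% and 0.270%. The median goblet-like cell held 0.593%, 1.19%, 0.197%, 0.485% and 0.308%, so in resection 2 the medians were close. In sham 2 and in resection 2, 2 goblet-like cells had at least 10% member UMIs, up to 16.1% and 25.1%, which raised the class shares. In this class Mmp7 had the highest level of the 10 members relative to Paneth-like cells in 4 of 5 libraries, a pattern chosen here after its values were seen and so given with no test. In sham 1 it was level with Itln1 (2.77% and 2.73% of the Paneth-like level), and in sham 2 it lay below Defa17 and Defa24 (3.87% against 4.80% and 4.36%). Mmp7 had 8 UMIs in 6 of 30 goblet-like cells in sham 1, 51 in 40 of 168 in sham 2, and 42 in 20 of 77 in sham 3. In resection 1 it had 15 UMIs in 11 of 52 cells, and in resection 2 it had 74 in 37 of 203. No goblet-like cell held more than 7 of them.

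A ratio to Lyz1 within a library does not depend on the library's total. Per 1000 Lyz1 UMIs, goblet-like cells held 116 Mmp7 UMIs in sham 1 (exact 95% interval 48.1 to 241), 106 in sham 2 (78.0 to 142) and 636 in sham 3 (422 to 951). They held 188 in resection 1 (100.3 to 328) and 235 in resection 2 (180 to 303). Paneth-like cells held 61.6, 62.2, 46.2, 66.0 and 62.0, and enterocyte-like cells 73.2, 57.5, 43.7, 60.1 and 61.6. The goblet-like ratio was above that of Paneth-like cells in 5 of 5 libraries, by 1.71 to 13.8 times. In sham 1 its interval included the ratios of both other classes. Other members also stood higher relative to Lyz1 in goblet-like than in Paneth-like cells in 5 of 5 libraries, Defa24 by 1.16 to 1.93 times and Itln1 by 1.07 to 1.85 times. For Defa24 this was not particular to goblet-like cells. Per 1000 Lyz1 UMIs, Paneth-like cells held 7395, 9162, 7655, 9116 and 9827 Defa24 UMIs. Enterocyte-like cells held 7222, 14198, 9487, 11678 and 14007, and goblet-like cells 13116, 17660, 8909, 15825 and 13057. In sham 2 the 1.93 times of Defa24 was above the 1.71 times of Mmp7. Stem-like cells (77.5 to 167) and cycling-like cells (59.0 to 121) rested on 3 to 41 Mmp7 UMIs a library, and cycling-like cells were above goblet-like cells in sham 1 (119 against 116) and below Paneth-like cells in sham 2 (59.0 against 62.2). In sham 3 and resection 2 the intervals of both classes lay above the Paneth-like ratio. In sham 3, though, 1 stem-like cell held 13 of the 21 Mmp7 UMIs of its class, and 1 cycling-like cell 9 of 24. In resection 2, 1 cycling-like cell held 11 of 41, while no stem-like cell held more than 1. The intervals cover counting error only, and they are no test of a pattern chosen after its values were seen. Goblet-like cells with an Mmp7 UMI had a higher median member share than those without in 5 of 5 libraries. The medians went from 0.643% against 0.591% in sham 1 to 0.716% against 0.474% in resection 1. That share counts Mmp7 itself, so it is raised by construction in cells with an Mmp7 UMI. The part of free RNA in the Mmp7 counts was not tested.

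**Figure D4:**
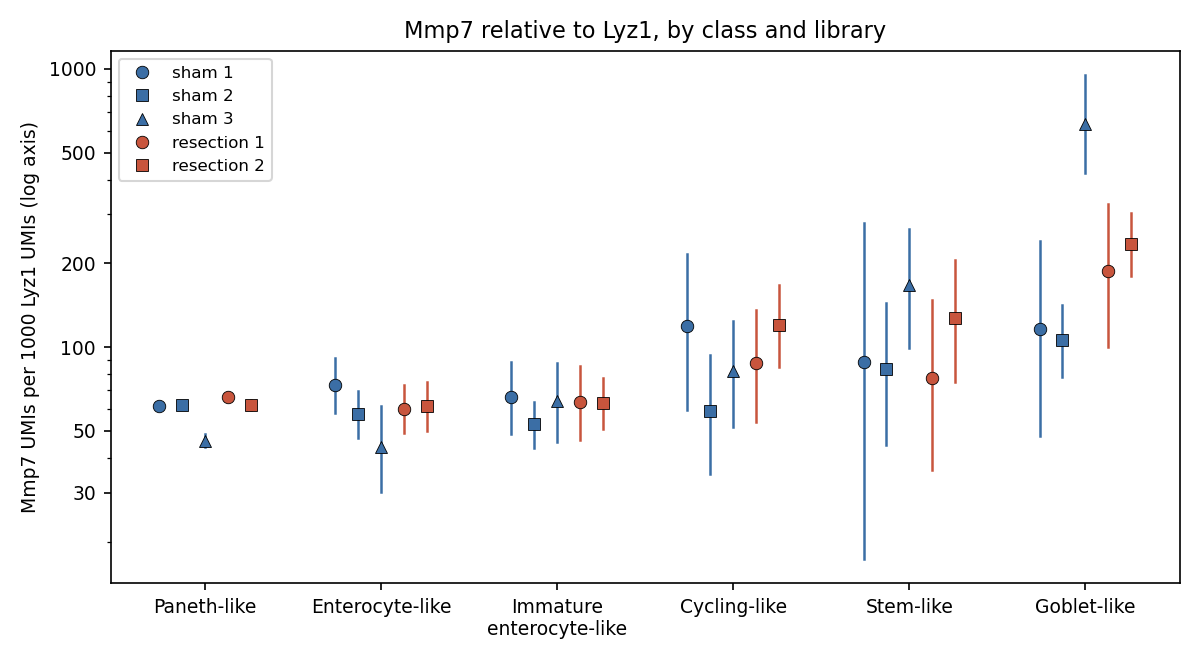
Mmp7 UMIs per 1000 Lyz1 UMIs in each epithelial class (log axis), with 1 point per library and exact 95% intervals from counting error. Paneth-like and enterocyte-like points lie between 43.7 and 73.2, goblet-like points between 106 and 636, and stem-like and cycling-like points between 59.0 and 167.

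Droplets named T cell-like showed the opposite of an even background, except in resection 1. They held 10.8%, 8.33%, 0.663%, 0.494% and 1.49% member UMIs, but the median droplet held 0.182 to 1.17%. Of 469 such droplets, 22 had at least 10% member UMIs, and these 22 carried 86.5% of the class's member UMIs. By library they numbered 4, 11, 1, 0 and 6. Outside the Paneth-like class, 31 of 17214 kept cells reached 10%. Among the 720 droplets removed as predicted doublets, 92 did.

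The first comparison between surgery groups was made in Paneth-like cells, with UMI counts summed per library and tested with edgeR over all genes. No member passed the test: 0 of 10 reached an adjusted p below 0.05, 0 had an unadjusted p below 0.05, and DESeq2 called 0. Over all genes 4 of 6255, or 0.0639%, passed. On the log2 scale the difference, resection minus sham, lay between -0.29 for Lyz1 (SE 0.58) and 0.17 for Ang4 (SE 0.54), 8 members lower and 2 higher, with an edgeR adjusted p of 0.9998 for each. With TMM scaling, which sets libraries level on the bulk of their genes, Lyz1 averaged 26267 ± 3564 CPM (SD, n = 3) against 21481 ± 9951 in the resection libraries (SD, n = 2). Defa24 averaged 210418 ± 20224 and 200948 ± 83456 CPM, a log2 difference of -0.07 (SE 0.62). In none of the members did the resection libraries lie outside the sham range, against 13.7% of all genes tested.

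After TMM scaling, the 2 resection libraries differed from the sham libraries of their sets in opposite directions. On log2(CPM + 1) after TMM, resection 1 was higher than sham 1 for all 10 members, by 0.01 (Defa17) to 0.65 (Ang4), and resection 2 was lower than the mean of sham 2 and 3 for all 10, by a log2 difference of -0.38 (Ang4) to -0.98 (Defa17). Without resection 2, all 10 members were higher after resection, and without resection 1 all 10 were lower, with 0 called in either case. These values depend on the scaling, since TMM gave resection 2 a factor of 1.38 and the other libraries factors of 0.823 to 1.01. In CPM of the class total, Lyz1, Itln1 and Defa17 were lower in resection 1 than in sham 1, and the other members were higher. Ang4 in resection 2 (4680 CPM) then lay between sham 2 (3733 CPM) and sham 3 (4823 CPM), while the other members lay below both. Scaled by totals alone, 3 members were higher and 7 lower, with Defa24 changing sign to 0.025 while the median of all genes moved from 0.00 to 0.16. Resection 2 was also the library with the fewest UMIs per Paneth-like cell (5891) and with most RNA of enterocyte markers there: 13 markers summed to 12035 CPM, against 2655 CPM in resection 1 and 3944 to 7315 CPM in the sham libraries. The part of these in the result was not tested.

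**Figure D5:**
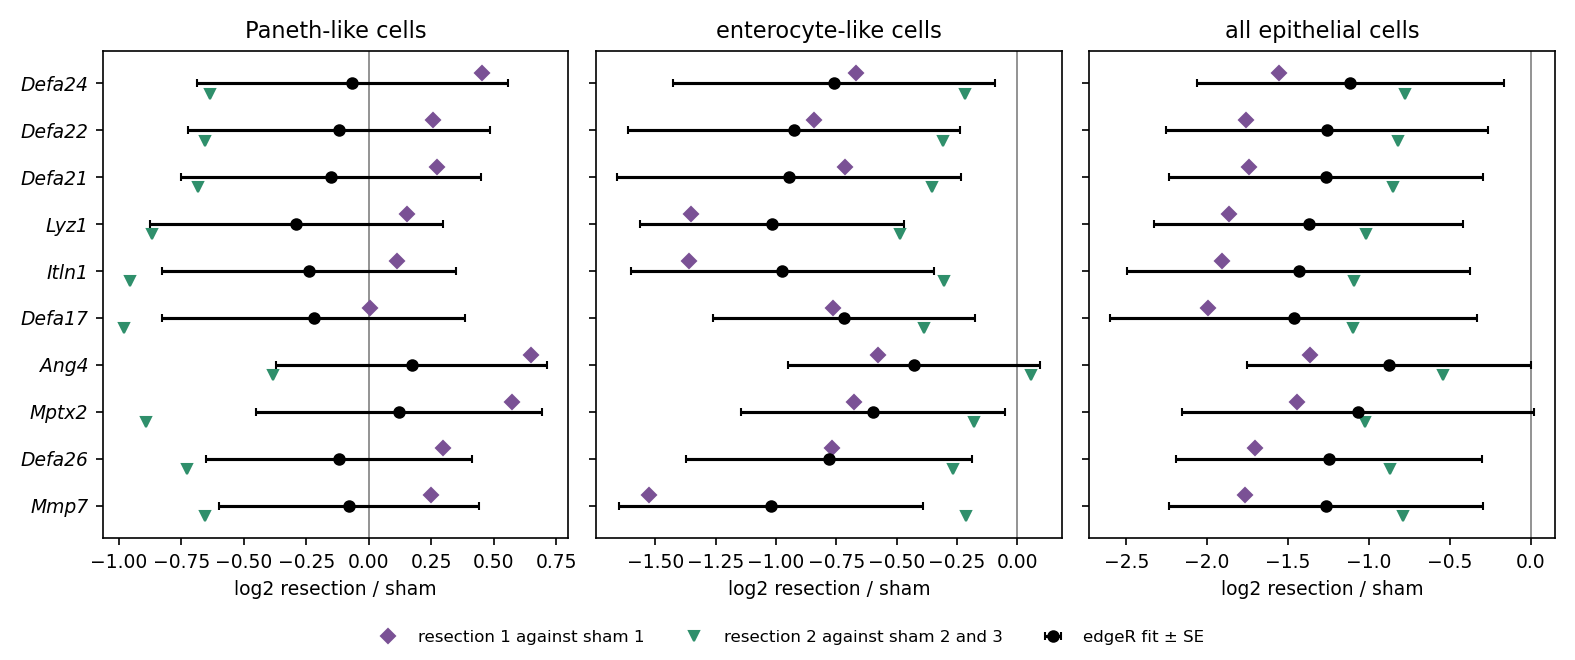
Log2 difference, resection minus sham, of each member in 3 sets of cells: the edgeR estimate with its SE (black), resection 1 against sham 1 (purple) and resection 2 against sham 2 and 3 (green). With TMM scaling, the purple points of Paneth-like cells lie at or above 0 and the green below, and in all epithelial cells both lie below 0.

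The 4 genes that passed in Paneth-like cells are named although they are no members, since no other gene did: Lct, Slc2a2, Fabp1 and Cyp2b10, all higher after resection. Lct encodes the milk-sugar enzyme lactase and Fabp1 a fatty acid carrier of enterocytes. Lct had 12.9, 9.21, 2.95, 51.3 and 38.9 CPM after TMM scaling (log2 difference 2.28, SE 0.42, edgeR adjusted p 0.0488). They are genes of absorptive cells, at low levels next to the members, and the part of free RNA in them was not tested. Without sham 2 or without sham 3 edgeR called 0 genes, without resection 1 it called 1, without resection 2 it called 10 and without sham 1 it called 11.

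The share of the whole Paneth-like transcriptome given to the members did not separate the groups either. Its mean was 41.5% ± 1.28 for the sham libraries (SD, n = 3) and 40.7% ± 3.90 for the resection libraries (SD, n = 2), which is -0.814 percentage points apart (exact two-sided permutation p = 0.8, adjusted 0.8 over the 4 shares compared; the smallest p this design allows is 0.1). Set A gave 3.41 points and set B -4.31. Paneth-like cells themselves made up 17.4%, 6.54%, 4.30%, 4.88% and 4.15% of epithelial cells (exact permutation p = 0.6, adjusted 0.8). Sham 1 stood far above the rest, and without it the difference of -4.88 points became -0.902.

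In enterocyte-like cells, where the members are read as background, all 10 estimates were below 0, with a log2 difference between -0.43 (Ang4, SE 0.52) and -1.02 (Mmp7, SE 0.63), and none passed. The lowest edgeR adjusted p was 0.961, with 0 members below an unadjusted 0.05 and 0 called by DESeq2. Of 10040 genes, 0 (0%) passed in edgeR, 558 had an unadjusted p below 0.05, and DESeq2 called 55. No member had resection libraries outside the sham range, against 19.3% of genes, because sham 3 lay below and sham 2 above the resection libraries. Without sham 2, 3 of the 10 turned higher and the median over members went from -0.85 to -0.08. The member share averaged 0.512% ± 0.351 (SD, n = 3) and 0.295% ± 0.00844 (SD, n = 2; exact permutation p = 0.6, adjusted 0.8).

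Summed over all epithelial cells, the members had log2 differences of -0.87 (Ang4, SE 0.88) to -1.47 (Defa17, SE 1.13), all below 0, and again 0 of 10 passed in edgeR (adjusted p 0.9997 for each; 0 below an unadjusted 0.05; 0 by DESeq2). Of 11761 genes, 0 (0%) passed in edgeR, 325 had an unadjusted p below 0.05 and DESeq2 called 36. Outside the sham range lay 14.2% of genes and none of the members. Such a sum cannot tell fewer Paneth-like cells from less RNA per cell. It was set largely by sham 1, whose member share of epithelial UMIs was 17.6%, against 6.66%, 2.36%, 7.19% and 2.29% in the others. Without sham 1 the median log2 difference over members went from -1.26 to -0.12, with 3 members higher. The sets gave the same sign here, -1.37 to -1.99 in set A and -0.54 to -1.10 in set B.

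Other genes of Paneth cells, from lists chosen by function, likewise held no called gene in Paneth-like cells. Of the other granule and antimicrobial genes, 30 of 33 could be tested, 0 passed, and 9 were higher and 21 lower, with a median log2 difference of -0.15 against 0.00 for all genes. Levels of the genes named from these lists are CPM after TMM scaling. The lowest p among them belonged to the defensin-like gene Gm21002, which had 21555, 8606, 5164, 6706 and 2344 CPM (log2 difference -1.38, SE 0.69, edgeR adjusted p 0.9998). Nupr1, a stress-induced chromatin protein, stood at 826, 670, 1189, 616 and 457 CPM (-0.74, SE 0.51). Defa23 stood at 2632, 1006, 572, 1208 and 207 CPM (-0.99, SE 0.70).

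Among regulators of Paneth cells and their niche signals, 26 of 37 genes could be tested and 0 passed, with 12 higher and 14 lower and a median of -0.09. The lowest p belonged to Foxa1, a transcription factor of secretory lineages, with 14.3, 7.16, 12.8, 5.05 and 5.78 CPM (log2 difference -1.07, SE 0.42, edgeR adjusted p 0.9998). Both resection libraries lay below every sham library for Foxa1, as for 6.35% of all genes tested. Its relative Foxa3 had a log2 difference of -0.56 (SE 0.40).

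Genes of the secretory pathway and of the unfolded protein response, on which cells with a heavy secretory load depend, were 8 higher and 28 lower of 36 tested, with 0 passing and a median of -0.22. The endoplasmic reticulum chaperone gene Creld2 had 14.5, 13.3, 15.7, 10.4 and 6.56 CPM (log2 difference -0.74, SE 0.38, edgeR adjusted p 0.9998). Herpud1, which acts in degradation of misfolded proteins, had -0.55 (SE 0.42). Ern2, the epithelial stress sensor IRE1 beta, went the other way, with 0.57 (SE 0.40). Scaled by totals alone, the median of all genes moved by 0.16, which is of the size of these list medians.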

How the data were processed

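The authors deposited unnormalized UMI counts, as a separate gene-by-cell matrix for each library. Per the labels, libraries were made with 10x 3' v2 chemistry and counted with Cell Ranger, whose version carries a question mark there. Per the submitters' processing notes the build is mm10 (GRCm38), that of the GENCODE M21 annotation used here. The annotation used for counting is not given in the sources used here.

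The 10 members, the gene lists and the library sets were chosen with earlier results of these data known. Cells under 500 genes or over 20% mitochondrial UMIs were dropped, and predicted doublets were removed (0.8% of cells per 1000 in the library, 720 in all). Per library, 11749028 to 41281731 UMIs were deposited, and the kept cells had medians of 4517 to 6208 UMIs. On 2000 variable genes, without the members and mitochondrial genes, 30 principal components and 20 neighbours were clustered with leidenalg 0.10.2 (resolution 1.0) into 20 clusters. Clusters were named from marker lists without the members. The scoring rule for names, counting only markers with at least 20 CPM in some cluster, was chosen after the data were seen.

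Counts were summed per library and class and tested with edgeR 4.0.16 (quasi-likelihood test, TMM, filterByExpr, Benjamini-Hochberg over all genes tested, threshold 0.05) in R 4.3.3. DESeq2 1.42.0 was an alternative. The SE is the log2 difference divided by the square root of F. Shares were compared by an exact permutation test over 10 ways to pick 2 of 5 libraries. In counts simulated from the Paneth-like sums, with changed genes drawn from all genes tested, edgeR recovered 8.96% of genes changed by 1 log2 unit, 85.1% by 2 and 93.9% by 3. That was at the dispersion (spread between libraries) estimated from the data. At a low fixed dispersion it recovered 49.3%, 92.5% and 97.0%. Named genes are the members, the 3 of each list with the lowest p and the 5 most like the members (mean of at least 20 CPM, on log2(CPM + 10)). A gene that this rule names in the list of regulators is not reported here. Genes outside this rule were named after their values were seen. Alternatives were another tool, scaling, filter, clustering, cell filter, block or set term, and leaving out each library. Replicate numbers come from the sample titles.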

Additional observations from a re-analysis of the deposited data

How the results depend on the processing

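Over all settings run, 0 of the 10 members were called in Paneth-like cells. In the other cells every setting also gave 0, except the replicate block (replicate number as a term), which called 9 of 10 members in enterocyte-like cells and 10 of 10 in all epithelial cells, all lower after resection. That fit rests on sham 1 and 2 with resection 1 and 2, since sham 3 shares its number with no library. The titles share only numbers, and nothing in the labels pairs the libraries. Same-numbered libraries deviated together over genes (r 0.44 and 0.37 in Paneth-like cells, 0.73 and 0.45 in all epithelial cells). Sham 3 and resection 2, with different numbers, also did (0.11 in Paneth-like cells and 0.58 in all epithelial cells). These are deviations from group means, and those of the 2 resection libraries mirror each other. The r values are therefore tied together and cannot decide whether libraries are paired. Over all genes the block called 32, 289 and 215 genes in Paneth-like, enterocyte-like and all epithelial cells, against 4, 0 and 0 without it. Leaving the low-count filter out called 13, 236 and 18 genes. DESeq2 called 6, 55 and 36. The library set as a term called 7, 0 and 3, and put 10 of 10 members in all epithelial cells below an unadjusted p of 0.05 (lowest adjusted p 0.359). In Paneth-like cells scaling by totals called 2 genes, keeping doublets 2, no mitochondrial filter 1 and leaving out 1 library 0 to 11. In enterocyte-like cells 1 gene was called with no mitochondrial filter and 1 with the members among the variable genes.

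Single signs in Paneth-like cells turned with few settings: Defa24 to 0.025 under scaling by totals, an alternative chosen after seeing the data, and Mptx2 to -0.25 under the replicate block and to -0.25 with the library set as a term. Leaving out 1 library at a time moved the log2 difference in Paneth-like cells over -0.89 to 0.11 for Lyz1, -1.24 to 0.35 for Defa17, -0.69 to 0.21 for Defa21, -0.70 to 0.27 for Defa22, -0.59 to 0.29 for Defa24, -0.76 to 0.30 for Defa26, -0.39 to 0.55 for Ang4, -1.07 to 0.26 for Itln1, -1.02 to 0.73 for Mptx2 and -0.74 to 0.34 for Mmp7. The low ends are without resection 1 and the high ends without resection 2. In enterocyte-like cells the sign turned without sham 2 for Defa21 (-1.37 to 0.021), Defa24 (-1.17 to 0.045) and Ang4 (-0.81 to 0.14). In all epithelial cells it turned without sham 1 for Defa17 (-2.85 to 0.12), Ang4 (-1.81 to 0.24) and Mptx2 (-2.64 to 0.18). The difference in member share went from -3.57 to 1.95 points in Paneth-like cells and from -7.37 to 0.23 in all epithelial cells when 1 library was left out. The cause was not tested. With 3 against 2 libraries, a change of 1 log2 unit was seldom recovered in counts simulated at the estimated dispersion (8.96% in Paneth-like cells). At a low fixed dispersion 49.3% were recovered there. Neither run was set to the spread of the members.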

Other observations

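The defensin genes of the same run on chromosome 8 that are not among the 10 members mostly split by library set. In Paneth-like cells, 16 of these 23 genes were higher in both set A libraries than in all 3 set B libraries, 0 were lower, and 7 overlapped, against 5.44% of all genes tested higher in set A and 25.9% lower. Some of the abundant ones differed little: Defa20 had 144309 and 147320 CPM in sham 1 and resection 1, against 118924, 142363 and 111479 CPM in sham 2, sham 3 and resection 2. Others differed more: Gm14850 had 19585 and 17035 CPM in set A, against 11508, 13565 and 8943 CPM in set B. Gm21002 had a ratio of set means of 2.36, and its sets overlapped. Gm15284 and AY761184 overlapped between the sets, with ratios of set means of 1.01 and 0.994.

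The largest ratios of set means were among the scarce ones. Defa-rs7 had 105 and 71.9 CPM in set A against 6.15, 2.67 and 3.17 CPM in set B, and Gm7849 had 679 and 478 CPM against 130, 114 and 105 CPM. Gm21498 had 31.7 and 27.9 CPM in set A, 2.05 CPM in sham 2 and no UMI in sham 3 and resection 2. Ribosomal pseudogenes, whose reads also fit other genes, were higher in set A as well (1.72 to 2.31% of ribosomal UMIs against 0.634 to 0.729%). The part of read assignment in the defensin differences was not tested.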
